A study of Saccharomyces cerevisiae with 12 samples.

Results

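The comparison described here sets yeast strains that lack *RAD23* against yeast strains that carry it. Its members were chosen by genotype alone: 6 of the 12 arrays of the series are from strains without *RAD23* (3 *rad23Δ* and 3 *rad4Δrad23Δ*) and the other 6 are from strains with *RAD23* (3 *rad4Δ* and 3 wildtype). The study asked which genes depend on the Rad4–Rad23 complex, and measured basal mRNA levels in these 4 strains with Affymetrix yeast S98 arrays. All strains were BY4742, a haploid strain of mating type α, and total RNA came from untreated cells grown in YPD, a rich medium with glucose, to an optical density of 0.5 to 0.6. The *rad23Δ* strain lacks *RAD23* and carries *RAD4*. The *rad4Δrad23Δ* strain lacks both genes and was made from that same *rad23Δ* strain by exchange of *RAD4* for a *HIS3* marker. The *rad4Δ* strain carries *RAD23* and lacks *RAD4*, and wildtype carries both. Both strains without *RAD23* therefore descend from 1 deletion clone, so the loss of *RAD23* and any other change carried by that clone cannot be told apart in these data. The labels number the arrays of a strain 1 to 3 without saying whether they came from separate cultures, so the p-values measure the spread between these arrays only.

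Rad23 is a carrier protein of the ubiquitin system. Its ubiquitin-like domain docks on the 26S proteasome and its ubiquitin-associated domains hold ubiquitin chains, so that it brings tagged proteins to be degraded, a job it shares with Dsk2 and Ddi1. A separate domain binds Rad4, the protein that recognises DNA lesions at the start of nucleotide excision repair, and protects Rad4 from degradation. Rad23 also takes part in the disposal of misfolded proteins of the endoplasmic reticulum, with the peptide N-glycanase Png1, and, together with Dsk2, in duplication of the spindle pole body.

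Values are log2 RMA values (robust multichip average, the authors' background-corrected, between-array normalized and probe-set-summarised signal), and array medians were between 5.83 and 5.90. Between 0 and 104 probe sets of an array lay more than 1 log2 unit from the mean of the other 2 arrays of its strain. Only probe sets for which those 2 arrays were close to each other were counted. The higher numbers were on wildtype replicate 2 (104), *rad4Δ* replicate 3 (101) and *rad4Δrad23Δ* replicate 2 (79, all of them low). *RAD4* was at 5.47 on the array labelled *rad4Δ* replicate 2, against 3.49 and 3.01 on the other *rad4Δ* arrays, and at 3.42 on the array labelled wildtype replicate 3, against 5.11 and 5.12 on the other wildtype arrays. The labels of these 2 arrays go against their *RAD4* signal. Both arrays lie in the group with *RAD23*, so an exchange between them would leave the comparison of 6 with 6 arrays as it is, while it would alter values given per strain for *rad4Δ* and wildtype. Mating-type markers were read as a check on the strains. The list mean of the 4 MATα-specific genes was 10.53 to 10.74 in strains without *RAD23* and 10.76 to 11.06 in strains with *RAD23*, and that of the 7 MATa-specific genes was 3.72 to 4.03 in strains without *RAD23* and 3.72 to 4.05 in strains with *RAD23*.

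Few transcripts differed between strains without and strains with *RAD23*, and only *RAD23* and *HXT3* differed by more than 2 on the log2 scale among those called. Of 9275 probe sets tested with limma, 22 passed an adjusted p of 0.05 (0.237% of those tested), 7 of them higher in strains without *RAD23* (0.0755%) and 15 lower (0.162%). The lower side was led by *RAD23* itself and by the glucose transporter gene *HXT3*. The higher side was led by a probe set of the subtelomeric helicase family *YRF1*, by *TMA10* and by a neighbour of *HXT3*, *HXT6*. Of the 22, 16 differed by less than 1 on the log2 scale, and the smallest called difference was a 1.31-fold one.

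The 12 arrays fell into 2 groups without overlap for 90 probe sets (0.97% of those tested), 35 of them higher without *RAD23* (0.377%) and 55 lower (0.593%). Of the 22 called, 21 were among these 90. At an unadjusted p under 0.05 there were 792 (8.54%), 344 higher (3.71%) and 448 lower (4.83%). The count depended on the model: it was 80 (45 higher, 35 lower) with 4 strain means, 40 (20 and 20) with *RAD4* state as a covariate and 321 (137 and 184) with array weights. The split by direction also depended on scaling: with arrays centred on their medians it was 19 higher and 17 lower, and after a further quantile normalization it was 21 higher and 18 lower. Without both arrays whose labels are in doubt 6 probe sets passed, all of them among the 22: *HXT3*, *RAD23* and *ALD5* lower, and *HXT6*, *HXT7* and the *YRF1* probe set higher. Without *rad4Δ* replicate 3 the count was 49, and without *rad4Δrad23Δ* replicate 1 it was 14.

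**Figure D1:**
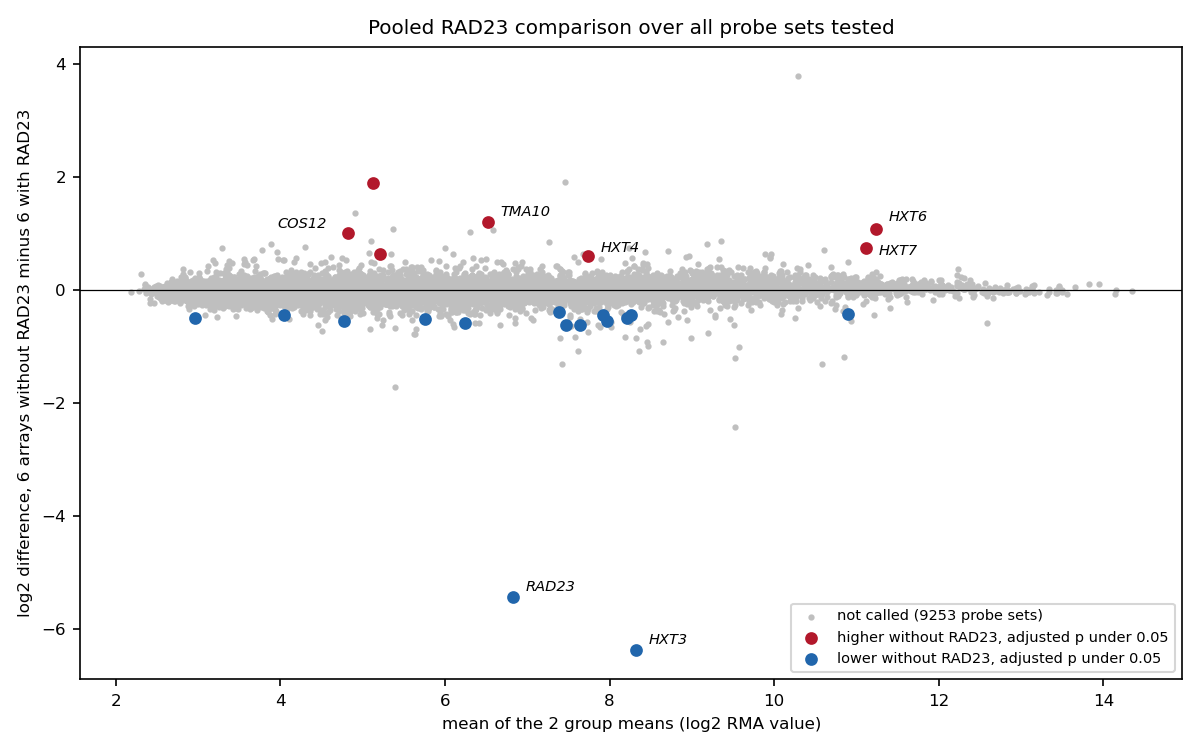
Each point is 1 of the 9275 probe sets. The horizontal axis is the mean of the 2 group means (log2 RMA value) and the vertical axis the log2 difference, the 6 arrays without *RAD23* minus the 6 arrays with *RAD23*. *HXT3* at -6.37 and *RAD23* at -5.43 lie far below all other probe sets, while the other called probe sets (red higher, blue lower) lie between -0.63 and 1.90. Grey points beyond this range did not pass.

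The *RAD23* probe set gave the check on the genotypes. It read 4.88, 4.33 and 4.27 on the *rad23Δ* arrays and 3.66, 3.74 and 3.82 on the *rad4Δrad23Δ* arrays, against 9.38, 9.58 and 9.82 on the *rad4Δ* arrays and 9.58, 9.32 and 9.58 on the wildtype arrays. All 6 arrays labelled as lacking *RAD23* were low and all 6 others were high, with no overlap, a difference of -5.43 (SE 0.18, adjusted p = 3.24e-10 from limma). The genes beside *RAD23* on chromosome V were measured too. *UTR4*, the gene just before it, was lower by less than the threshold asks for (difference -0.29, adjusted p = 0.132) although its 12 arrays did not overlap, and *ANP1*, the gene just after it, had a difference of -0.13 (adjusted p = 0.727). *RAD4* did not pass in this comparison (-0.23, adjusted p = 0.935), as each group holds both *RAD4* genotypes.

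*HXT3*, a low-affinity glucose transporter used when glucose is plentiful, showed the greatest measured difference of all probe sets. Its value was 6.40, 6.13 and 6.16 in *rad23Δ* and 4.21, 4.10 and 3.84 in *rad4Δrad23Δ*, against 11.47, 11.36 and 11.72 in *rad4Δ* and 11.48, 11.66 and 11.39 in wildtype. Arrays without *RAD23* were low throughout, and within them the double mutant lay below the single mutant on every array. The difference was -6.37 (SE 0.42, 95% interval -7.28 to -5.47, adjusted p = 1.99e-06). In *rad4Δrad23Δ* the *HXT3* values lay within the range that the deleted *RAD23* gene gave on arrays without it (3.66 to 4.88).

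In contrast, 3 other hexose transporter genes rose in strains without *RAD23*. *HXT6* and *HXT7* encode high-affinity glucose transporters of nearly identical sequence, and each is read here by a probe set of a kind that Affymetrix marks as shared by a gene family, so their signals cannot be fully assigned to one or the other. *HXT6* had a lowest, median and highest value of 11.70, 11.77 and 11.86 without *RAD23*, against 10.52, 10.66 and 11.02 with *RAD23* (difference 1.07, SE 0.08, adjusted p = 8.19e-06). *HXT7* had 11.37, 11.51 and 11.61 without *RAD23*, against 10.60, 10.72 and 10.97 with *RAD23* (difference 0.73, SE 0.08, adjusted p = 0.000231). For both genes the gap between the groups was wider than the range within either group.

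*HXT4*, a further high-affinity transporter, had a lowest, median and highest value of 7.93, 8.04 and 8.15 without *RAD23*, against 7.16, 7.44 and 7.74 with *RAD23* (difference 0.60, SE 0.09, adjusted p = 0.0137). It missed the threshold only when both arrays in doubt were left out (adjusted p = 0.139), whereas *HXT3*, *HXT6* and *HXT7* passed in all 24 alternatives that kept the threshold of 0.05 and asked for no fold. With a log2 difference of at least 1 asked for as well, *HXT7* and *HXT4* are not counted.

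In the RefSeq gene order *HXT7* and *HXT6* stand 3 and 2 places before *HXT3* on chromosome IV. None of the genes around this trio was called: *YDR341C* before it had a difference of 0.10, and *SVF1*, *MRP1*, *PAL1* and *YPS7* after it had differences of 0.01, -0.05, -0.10 and 0.01. Of 21 hexose transporter and glucose sensing genes measured, these 3 rose and *HXT3* fell. The list's median difference was 0.08, beside -0.01 over all probe sets, and 14 of the 21 were above 0.

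Among the members that did not pass, *HXT2*, an inducible high-affinity transporter, was at 9.19, 9.54 and 10.09 (lowest, median, highest) without *RAD23* and 8.41, 8.76 and 9.21 with *RAD23* (0.81, adjusted p = 0.114), so the groups overlapped slightly. It differed by 0.34 in *rad4Δ* cells (adjusted p = 0.582) and by 1.28 in *RAD4* cells, where it was called (adjusted p = 0.0163), and the interaction did not pass (-0.94, adjusted p = 0.286). *HXT1*, the other main low-affinity transporter, had a difference of 0.08 (adjusted p = 0.946) that joins -0.43 in *rad4Δ* cells and 0.58 in *RAD4* cells (interaction -1.01, adjusted p = 0.298). *HXT5* had one of 0.23 (adjusted p = 0.66). *MTH1* and *HXK1*, a repressor of *HXT* genes and a hexokinase, were at 0.42 and 0.41 (adjusted p = 0.525 and 0.31). *RGS2*, which acts on the G protein of the glucose receptor, fell by 0.55 (adjusted p = 0.0432), and was the only called probe set whose groups overlapped, at 4.36 to 4.87 without *RAD23* and 4.78 to 5.34 with *RAD23*. Its call was lost on leaving out any single array other than wildtype replicate 2, *rad4Δ* replicate 3 or *rad23Δ* replicate 1 (adjusted p up to 0.118).

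**Figure D2:**
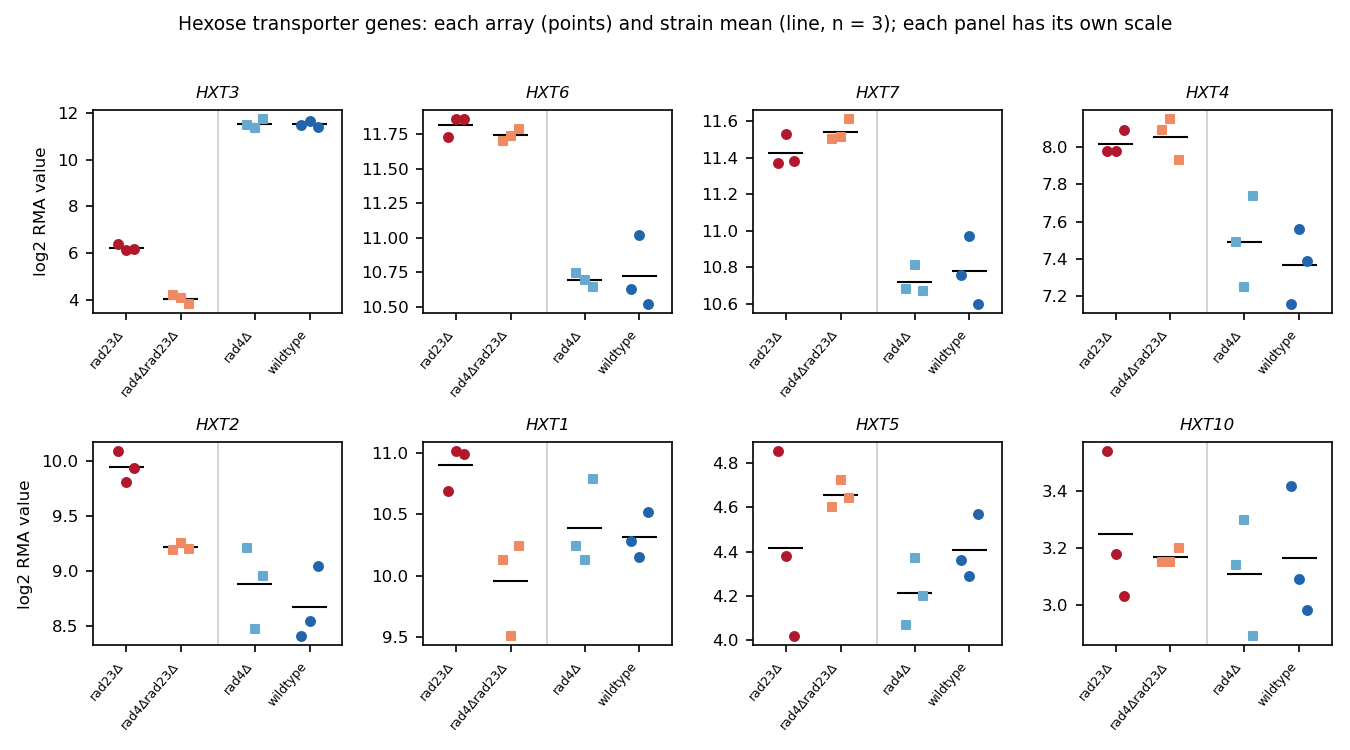
Log2 RMA values (vertical axes, a scale for each gene) of 8 hexose transporter genes on each array, with the strain mean as a line (n = 3). The 6 arrays without *RAD23* are left of the grey line and the 6 with *RAD23* right of it. *HXT3* is 3.84 to 6.40 without *RAD23* against 11.36 to 11.72 with it, *HXT6*, *HXT7* and *HXT4* are higher on every array without *RAD23*, and *HXT1*, *HXT5* and *HXT10* overlap.

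Outside sugar transport, few genes rose. *TMA10*, a small ribosome-associated protein whose mRNA is raised in stress, had a lowest, median and highest value of 6.79, 7.14 and 7.38 without *RAD23*, against 5.30, 5.85 and 6.49 with *RAD23* (difference 1.20, SE 0.19, adjusted p = 0.0137). *COS12*, a member of a subtelomeric family of membrane proteins that help to sort other membrane proteins for breakdown in the vacuole, had 4.82, 5.38 and 5.87 without *RAD23*, against 4.08, 4.34 and 4.48 with *RAD23* (difference 1.02, SE 0.18, adjusted p = 0.0301). *ADR1*, a transcription activator of genes for growth on ethanol, glycerol and fatty acids, had 5.27, 5.54 and 5.86 without *RAD23*, against 4.74, 4.91 and 5.05 with *RAD23* (difference 0.63, SE 0.10, adjusted p = 0.0147). For *COS12* and *ADR1* the upper part of the range without *RAD23* was made up by the *rad4Δrad23Δ* arrays.

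These calls differed in how they stood up to leaving out an array. That of *TMA10* was lost only without both arrays in doubt (adjusted p = 0.0525). That of *ADR1* was also lost without *rad4Δ* replicate 2 (0.0501) and without *rad4Δrad23Δ* replicate 1 (0.053). That of *COS12* held without *rad4Δ* replicate 3 or any *rad23Δ* array, and was lost without any of the other 8 (adjusted p 0.0503 to 0.0945).

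The relatives of *COS12* and the targets of Adr1 were looked at next. Of 8 genes with a *COS* name measured by a probe set with 1 gene name, 6 were above 0 and *COS12* alone was called. The median was 0.19, or 0.04 over all 16 of their probe sets. Those used for *COS4*, *COS7* and *COS9* are of kinds that Affymetrix marks as shared by several genes. The 8 values are therefore not fully separate measurements. One of the 8, *COS111*, is not a member of the subtelomeric family. Without it and *COS12*, the mean over the other 6 genes overlapped, at 8.08 to 8.34 without *RAD23* and 7.87 to 8.16 with *RAD23*. *COS8* had 3 probe sets with differences of 0.50 to 0.67 and no overlap of arrays, but adjusted p of 0.0567 to 0.106. The one at 0.67 is of the kind marked as shared by a gene family. *COS1*, *COS2*, *COS3* and *COS5* had only probe sets shared with other genes and are not among the 8. The probe set shared by *COS1*, *COS2*, *COS3* and *COS4* had a difference of 0.335 without overlap of arrays (adjusted p = 0.077). The other probe sets shared between *COS* genes were above 0 too, but their arrays overlapped. Of 18 glucose-repressed genes of gluconeogenesis and the glyoxylate cycle, *ADR1* was the only one called, and the median was -0.02. *ADH2*, the alcohol dehydrogenase gene that Adr1 is known for, had a difference of 0.08 (adjusted p = 0.849).

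The probe set shared by *YRF1-3*, *YRF1-6*, *YRF1-7* and *YPR202W*, which encode helicases of subtelomeric repeats or parts of them, rose by 1.90 (SE 0.17, adjusted p = 6.47e-05). It read 5.88, 6.5 and 6.29 in *rad23Δ* and 6.09, 5.76 and 5.95 in *rad4Δrad23Δ*, against 3.90, 4.0 and 3.72 in *rad4Δ* and 4.81, 4.31 and 4.35 in wildtype. Of 24 probe sets for *YRF1* genes it was the only one called. The other 23 had differences of -0.28 to 0.31, the upper end being a probe set for the same 4 genes (adjusted p = 0.507).

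Genes that fell in strains without *RAD23* encode proteins of several unrelated roles, and apart from *RAD23* and *HXT3* they fell by 0.39 to 0.63. *CPA1*, the small subunit of the carbamoyl phosphate synthetase of arginine synthesis, had a lowest, median and highest value of 7.82, 7.97 and 8.12 without *RAD23*, against 8.27, 8.46 and 8.69 with *RAD23* (difference -0.50, SE 0.08, adjusted p = 0.0137). It was the only one called of 16 genes of arginine synthesis and breakdown, of which 13 were below 0 (median -0.14). The mean over these 16 genes was 6.52 to 6.78 without *RAD23* and 6.80 to 6.94 with *RAD23*, ranges that only just parted. It takes in 3 genes whose own arrays did not overlap, *CPA1* among them. No mean without these 3 was taken, so the parting cannot be read as a trait of the whole list.

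*ARG1* and *ARG3*, which act in the later steps that turn ornithine into arginine, had no overlap between the groups either but did not pass. *ARG1* read 7.02 to 8.45 without *RAD23* and 8.53 to 9.22 with *RAD23* (difference -1.08, SE 0.25, adjusted p = 0.105). It was called in *RAD4* cells (-1.64, adjusted p = 0.000903) and not in *rad4Δ* cells (-0.53, adjusted p = 0.226), and the interaction did not pass (1.12, adjusted p = 0.121). *ARG3* read 3.12 to 3.38 without *RAD23* and 3.45 to 4.08 with *RAD23*, near the lower end of the scale (difference -0.46, SE 0.11, adjusted p = 0.132). *ARG4* overlapped (-0.62, adjusted p = 0.132), and it too was called in *RAD4* cells (-1.01, adjusted p = 0.00444) and not in *rad4Δ* cells (-0.23, adjusted p = 0.559), with an interaction of 0.78 (adjusted p = 0.159). The catabolic arginase gene *CAR1* was on the other side of 0, at 0.31 (adjusted p = 0.462). Of the other amino acid synthesis genes controlled by the activator Gcn4, 26 of 38 were below 0 with a median of -0.08 and none called.

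*STR3*, a cystathionine beta-lyase of methionine synthesis, had a lowest, median and highest value of 3.74, 3.80 and 3.97 without *RAD23*, against 4.10, 4.20 and 4.50 with *RAD23* (difference -0.44, SE 0.08, adjusted p = 0.0432). These values are low on the scale. Of 23 sulfur assimilation genes it was the only one called, with 16 below 0 and a median of -0.12. *SUL2*, a sulfate permease gene, did not overlap (-0.26, adjusted p = 0.199). The call of *STR3* is close to the threshold: it held without *rad4Δ* replicate 3 and was lost without any other single array (adjusted p 0.0503 to 0.107), and also after a further quantile normalization (0.085).

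Other metabolic and transport genes among the calls were *ALD5*, *FUI1* and *IZH1*. *ALD5*, a mitochondrial aldehyde dehydrogenase, had a lowest, median and highest value of 7.5, 7.70 and 7.86 without *RAD23*, against 8.05, 8.23 and 8.52 with *RAD23* (difference -0.55, SE 0.09, adjusted p = 0.0137), and was called in all 24 alternatives that kept this threshold and asked for no fold, though not at an adjusted p under 0.01. *FUI1*, the uridine permease, had 7.61, 7.66 and 7.81 without *RAD23*, against 8.04, 8.12 and 8.35 with *RAD23* (difference -0.45, SE 0.07, adjusted p = 0.0137). *IZH1*, a membrane protein of zinc homeostasis, had 7.83, 8.06 and 8.23 without *RAD23*, against 8.37, 8.5 and 8.57 with *RAD23* (difference -0.44, SE 0.08, adjusted p = 0.0432). The groups did not overlap for any of these genes. *IZH1* was lost without any single array other than *rad4Δ* replicate 3, *rad23Δ* replicate 1 or *rad23Δ* replicate 3 (adjusted p 0.0558 to 0.119). None of 28 iron and zinc uptake genes was called, with 23 below 0 and a median of -0.09.

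Of the nuclear and mating proteins, *TEA1*, a DNA-binding activator named for its effect on Ty1 enhancers, was at 5.32, 5.48 and 5.73 without *RAD23*, against 5.86, 6.0 and 6.17 with *RAD23* (lowest, median, highest; difference -0.51, SE 0.08, adjusted p = 0.0139). *NNF1*, a kinetochore protein, was at 7.08, 7.18 and 7.37 without *RAD23*, against 7.46, 7.60 and 7.70 with *RAD23* (difference -0.39, SE 0.07, adjusted p = 0.0301). *MF(ALPHA)2*, a gene for the mating pheromone α-factor, was at 10.63, 10.68 and 10.77 without *RAD23*, against 11.0, 11.06 and 11.35 with *RAD23* (difference -0.42, SE 0.07, adjusted p = 0.0172). All of them had narrow ranges and separate groups. *TEA1* was lost without *rad4Δrad23Δ* replicate 1 (adjusted p = 0.0522). *MF(ALPHA)2* was lost without *rad4Δ* replicate 1 (0.053), *rad23Δ* replicate 2 (0.0631) or *rad23Δ* replicate 3 (0.0534). *NNF1* held only without wildtype replicate 2, *rad4Δ* replicate 3 or *rad23Δ* replicate 1, and reached 0.0945 without the others.

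The remaining calls were of genes without an assigned function. *YGR079W* was at 7.08, 7.33 and 7.54 without *RAD23*, against 7.68, 7.96 and 8.15 with *RAD23* (difference -0.62, SE 0.09, adjusted p = 0.0137). *YAR068W* was at 6.97, 7.05 and 7.54 without *RAD23*, against 7.60, 7.76 and 7.92 with *RAD23* (difference -0.62, SE 0.10, adjusted p = 0.0137). A second probe set that is shared by *YAR068W*, *RBH2*, *YBR013C* and *YDR034C-A* fell by 0.58 (adjusted p = 0.0339, lost without any of 8 single arrays, up to 0.107). A probe set with no gene name fell by 0.50 (adjusted p = 0.0137), at 2.60 to 2.87 without *RAD23* and 2.98 to 3.37 with *RAD23*, near the lower end of the scale.

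**Figure D3:**
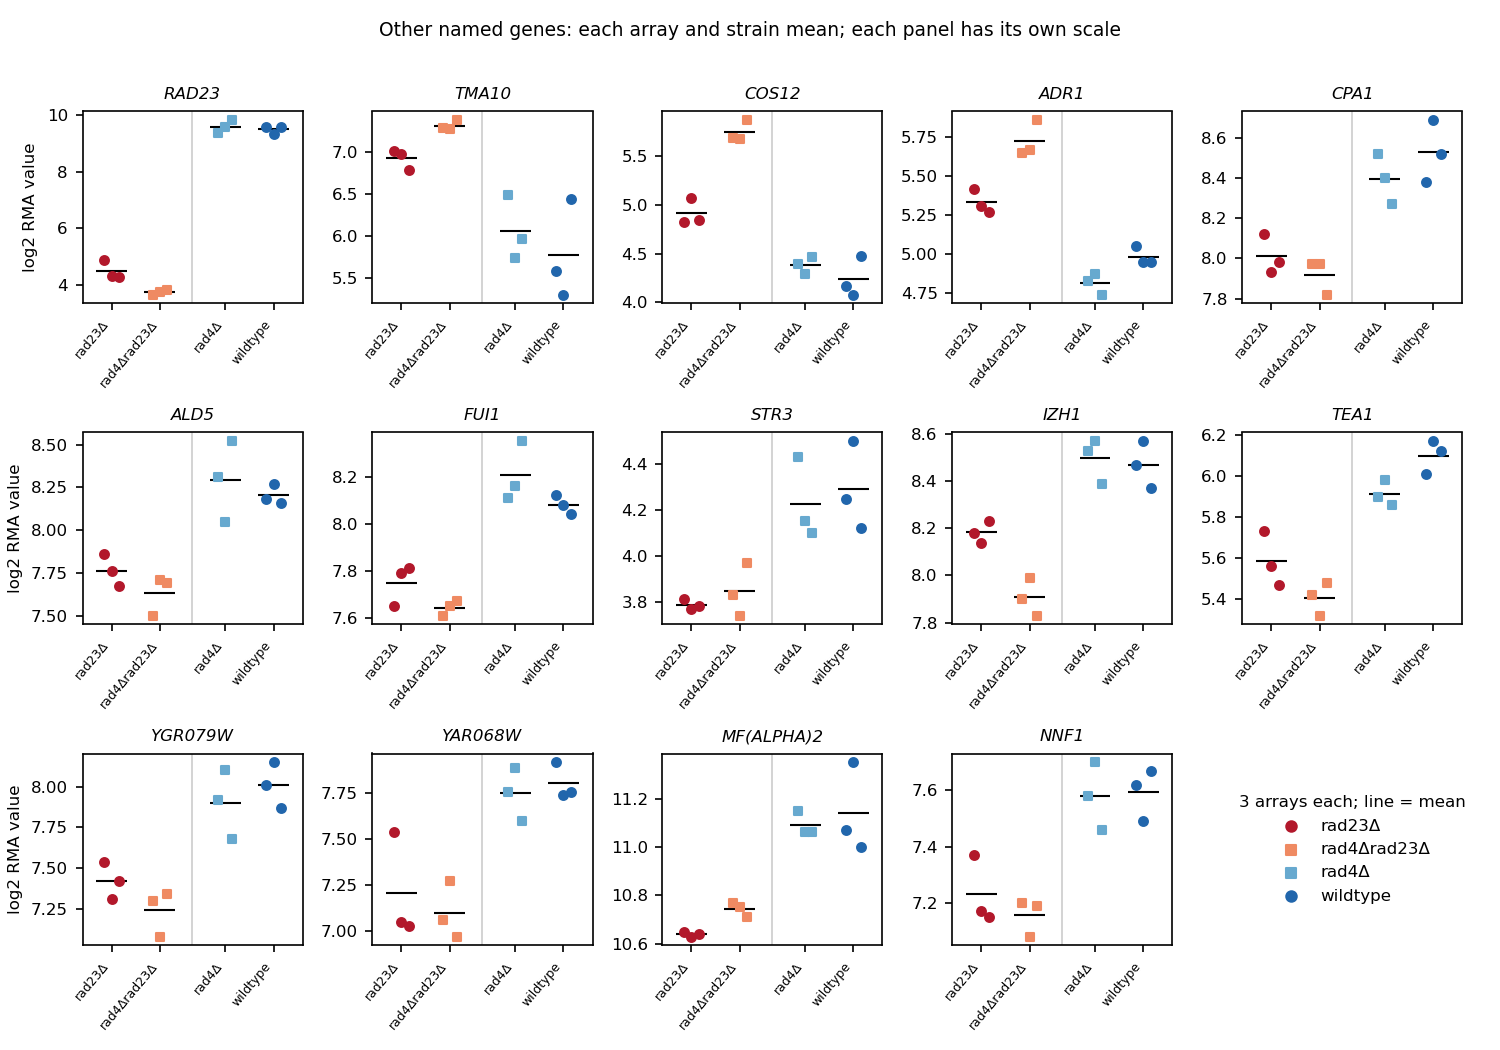
Log2 RMA values (vertical axes, a scale for each gene) of *RAD23* and 13 other called genes on each array, with the strain mean as a line (n = 3). Arrays without *RAD23* are left of the grey line in each panel and arrays with *RAD23* right of it, and the groups are apart in each panel. *TMA10*, *COS12* and *ADR1* are higher without *RAD23*, and the other 11 are lower.

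Values just outside the threshold were close to those just inside. *STR3* and *IZH1*, at an adjusted p of 0.0432, were among the last to pass, with differences of -0.44 each. *MAE1*, the mitochondrial malic enzyme, at -0.43, and *MRA1*, at 0.38, both had an adjusted p of 0.0507 and did not pass, and their arrays did not overlap either. The flavohaemoglobin gene *YHB1* was at 0.48 on one of its probe sets (adjusted p = 0.0507).

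Whether the difference depended on *RAD4* was asked by comparing *rad4Δrad23Δ* with *rad4Δ*, and *rad23Δ* with wildtype, in 1 model of 4 strain means. These comparisons share no array, but they rest on arrays whose labels are in doubt. All 22 probe sets had the same sign in both, which their choice by the mean of these effects favours. In *rad4Δ* cells 71 probe sets were called (0.765%), 14 of the 22 among them, and in *RAD4* cells 26 were called (0.28%), 6 of the 22 among them. With replicate number as a block, 12 of the 14 held, and *TEA1* (adjusted p = 0.0571) and *YGR079W* (adjusted p = 0.0506) missed the threshold. The 6 called in *RAD4* cells were *RAD23*, *HXT3*, *HXT6*, *HXT7*, *COS12* and the *YRF1* probe set, and all 6 were called in both backgrounds. Another 8 of the 22 passed in neither, and were called only with 6 arrays a side.

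The difference between both effects was tested directly as an interaction. It was called for 8 of 9275 probe sets (0.0863%), and *HXT3* was the only one of the 22 among these 8. At an unadjusted p under 0.05 there were 827 probe sets (8.92%), and 6 of the 22 were among them (*HXT3*, *RAD23*, *ADR1*, *COS12*, *IZH1* and the probe set shared with *RBH2*). *HXT3* fell by 7.47 in *rad4Δ* cells and by 5.28 in *RAD4* cells, and the interaction was -2.19 (SE 0.19, adjusted p = 0.000352). Within both strains with *RAD23* the gene was at nearly the same level, so this interaction came from the lower value in *rad4Δrad23Δ* than in *rad23Δ*. That lower value (mean 4.05) was at the level of a deleted gene. *RAD23*, absent from both strains, also read lower in *rad4Δrad23Δ* (mean 3.74) than in *rad23Δ* (mean 4.49). The size of the *HXT3* interaction therefore rests on values near the background signal. *ADR1* and *COS12* had larger differences in *rad4Δ* cells (0.91 and 1.36) than in *RAD4* cells (0.35 and 0.67), but the interaction did not pass (adjusted p = 0.175 and 0.213). *RAD23*, the probe set shared with *RBH2* and *IZH1* had interaction estimates of -0.85, -0.41 and -0.30 (adjusted p = 0.257, 0.556 and 0.552), further below 0 in *rad4Δ* cells. Estimates near 0 were those of *TEA1* (0.01), *HXT6* (-0.04) and *CPA1* (0.04).

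**Figure D4:**
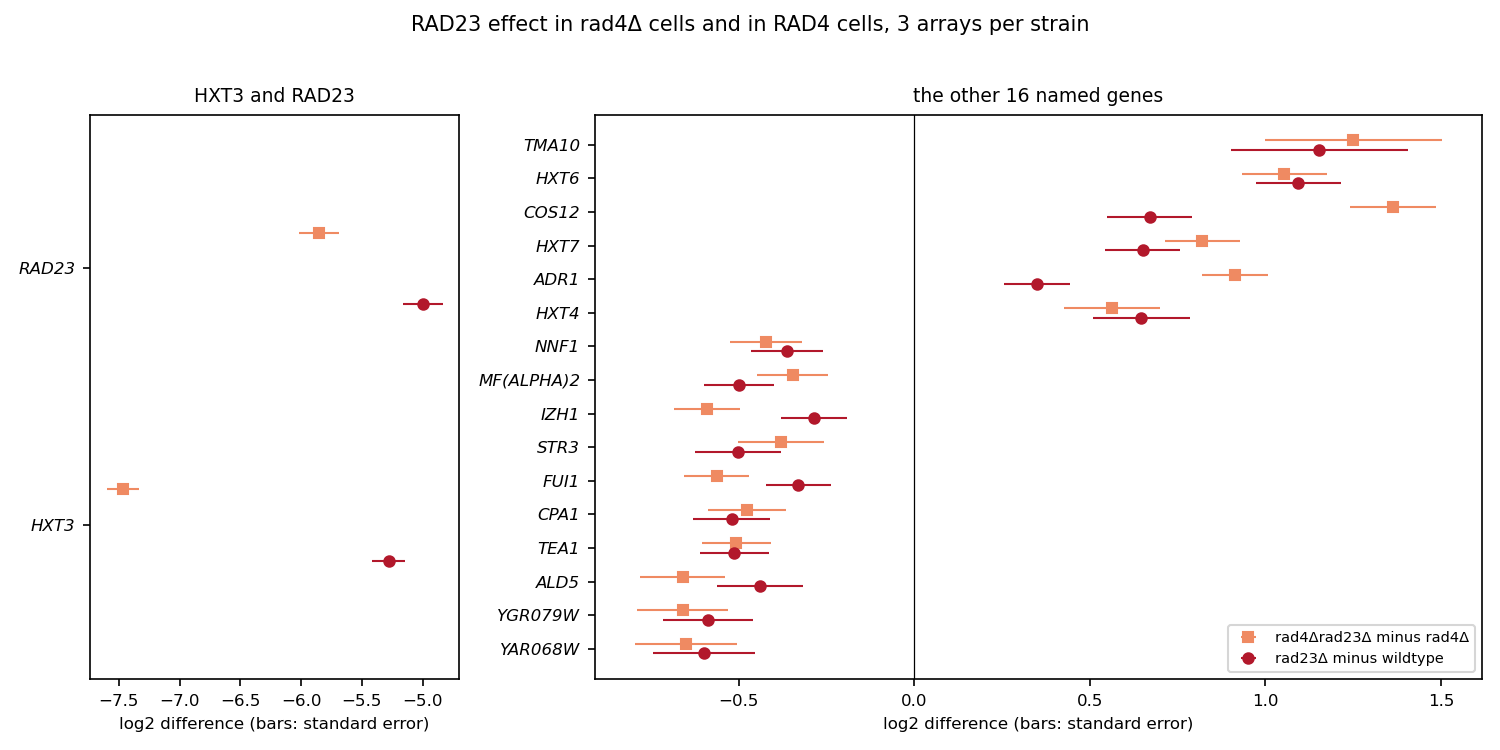
Log2 difference (horizontal axes, bars are standard errors) of *rad4Δrad23Δ* minus *rad4Δ* (squares) and of *rad23Δ* minus wildtype (circles), 3 arrays a strain, for *HXT3* and *RAD23* (left) and the other 16 named genes (right). Both estimates lie on the same side of 0 for every gene, as their choice favours. *HXT3* is at -7.47 and -5.28, and *ADR1* and *COS12* lie further from 0 in *rad4Δ* cells.

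Genes of the processes in which Rad23 works showed no called change beyond *RAD23* itself. Only 0.237% of all probe sets were called, so the lack of calls does not set these short lists apart from other genes. Of 18 genes for ubiquitin carriers and partners of the Cdc48 unfoldase, *RAD23* was the only one called. The other carriers did not pass: *DSK2* had a lowest, median and highest value of 10.44, 10.59 and 10.67 without *RAD23*, against 10.40, 10.61 and 10.70 with *RAD23* (difference -0.01, adjusted p = 0.973). *DDI1* and *PNG1* had differences of 0.05 and -0.002 (adjusted p = 0.867 and 0.997). *UBI4*, the stress-induced polyubiquitin gene, was at 7.58, 7.88 and 8.12 without *RAD23*, against 7.18, 7.24 and 7.90 with *RAD23* (difference 0.49, adjusted p = 0.199), so it overlapped and was not called.

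Of 34 genes for the 26S proteasome and its transcription activator Rpn4, none was called. However, 30 of the 34 were above 0, against 45.6% of all probe sets tested, with a median of 0.12 and 6 higher at an unadjusted p under 0.05, beside 3.71% of all probe sets. The lowest difference was that of *RPN13*, -0.84 (adjusted p = 0.78), which was at 3.96 on *rad4Δrad23Δ* replicate 2 and at 9.47 and 9.36 on the other *rad4Δrad23Δ* arrays. *RPN4* had the highest difference of the list, 0.46 (SE 0.12, adjusted p = 0.165), at 8.37, 8.71 and 8.99 without *RAD23* and 8.01, 8.19 and 8.55 with *RAD23*. The subunit genes *PRE9*, *SEM1* and *PRE10* had differences of 0.24, 0.23 and 0.23. The mean over the list was 8.98 to 9.21 without *RAD23* and 8.94 to 9.17 with *RAD23*, with overlapping groups.

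The other lists of Rad23's known roles lay around 0. Of 23 genes of endoplasmic reticulum-associated degradation and the unfolded-protein response, 13 were above 0 (median 0.01). Nucleotide excision repair had 12 of 26 above 0 (median -0.01) and only *RAD23* called, with *RAD7*, *RAD16* and *RAD14* at -0.01, -0.05 and 0.06. Spindle pole body duplication had 6 of 15 above 0 (median -0.04). The DNA damage checkpoint had 8 of 16 (median -0.003) and ribonucleotide reductase with the other genes repressed by Crt1 had 6 of 12 (median 0.03), with none called in these 3 lists. *DUN1*, the checkpoint kinase gene, had a difference of 0.09 (adjusted p = 0.85). In the last list the median was 0.20 in *rad4Δ* cells and -0.13 in *RAD4* cells.

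Most genes of the stress and chaperone lists were on the higher side, with *TMA10* alone passing the test. Of 26 heat shock and chaperone genes, 23 were above 0 (median 0.18) and none was called, beside 45.6% above 0 over all probe sets. The other 3 were below 0, the lowest of them at -0.65. At an unadjusted p under 0.05, 8 of the 26 were higher, beside 3.71% of all probe sets. *BTN2*, which gathers misfolded proteins into deposits, was at 6.68, 7.16 and 7.46 without *RAD23*, against 4.98, 6.04 and 7.18 with *RAD23* (difference 1.07, SE 0.32, adjusted p = 0.251). Its paralogue *CUR1* was at 5.03, 5.55 and 6.03 without *RAD23*, against 4.20, 4.62 and 5.21 with *RAD23* (difference 0.87, SE 0.21, adjusted p = 0.117). The groups overlapped for both, and the spread was wide among arrays with *RAD23*. The chaperone genes *HSP42* and *HSP82* had differences of 0.60 and 0.44 (adjusted p = 0.568 and 0.203).

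Of 40 genes controlled by the general stress activators Msn2 and Msn4, 33 were above 0 (median 0.14) and *TMA10* was the only one called. The other 7 were below 0, the lowest of them also at -0.65. The list's median was 0.41 in *rad4Δ* cells and -0.10 in *RAD4* cells, so its pooled value joins unlike values. The same held for 40 genes of the respiratory chain and citric acid cycle (34 above 0, median 0.10, none called), with 0.26 in *rad4Δ* cells and -0.05 in *RAD4* cells. The late growth-phase markers, 6 genes, had a mean of 4.12 to 4.86 without *RAD23* and 4.27 to 4.58 with *RAD23*. None of these list values was tested as a list.

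On the lower side, 23 of 27 pheromone-induced mating genes were below 0 (median -0.12), and none was called. At an unadjusted p under 0.05, 8 of the 27 were lower, beside 4.83% of all probe sets. *FIG1* and *FIG2*, which act at the site of mating cell contact, had differences of -0.72 and -0.61 (adjusted p = 0.0987 and 0.0932), and *AGA1*, the anchor of a-agglutinin, had -0.52 (adjusted p = 0.286). All 4 MATα-specific genes were below 0, *MF(ALPHA)2* being called. *SAG1*, the α-agglutinin gene, was at 10.32 to 10.74 without *RAD23* and 10.77 to 11.06 with *RAD23* (difference -0.33, adjusted p = 0.165), without overlap. Of 7 haploid-specific genes 6 were below 0 (median -0.10) and none was called, and of 7 MATa-specific genes 5 were above 0 (median 0.06).

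The phosphate regulon had 15 of 19 genes below 0 (median -0.18) with none called, and its median was -0.31 in *rad4Δ* cells and 0.04 in *RAD4* cells. *PHO84*, the high-affinity phosphate transporter, had a pooled difference of -2.42 that did not pass (adjusted p = 0.415), and it was -4.84 in *rad4Δ* cells and -0.01 in *RAD4* cells. Cytosolic ribosomal protein genes (28 measured, median 0.02), ribosome biogenesis (40, median -0.03), glycolysis (18, median -0.04), cell wall proteins (32, median -0.03), ergosterol synthesis (26, median 0.05) and pyrimidine and purine synthesis (24, median -0.02) had no called member. The pooled medians of ribosome biogenesis and of pyrimidine and purine synthesis join unlike values. They were -0.24 and -0.205 in *rad4Δ* cells, and 0.19 and 0.13 in *RAD4* cells. Of 5 strain marker genes 1 was above 0 (median -0.10) and none was called. Rescaling moved the median of all probe sets by less than 0.1, and the lists for ribosomal proteins, the checkpoint, gluconeogenesis, excision repair, ribonucleotide reductase and nucleotide synthesis changed the sign of their median, all within 0.06 of 0, under median centring or quantile normalization. All other lists kept theirs.

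**Figure D5:**
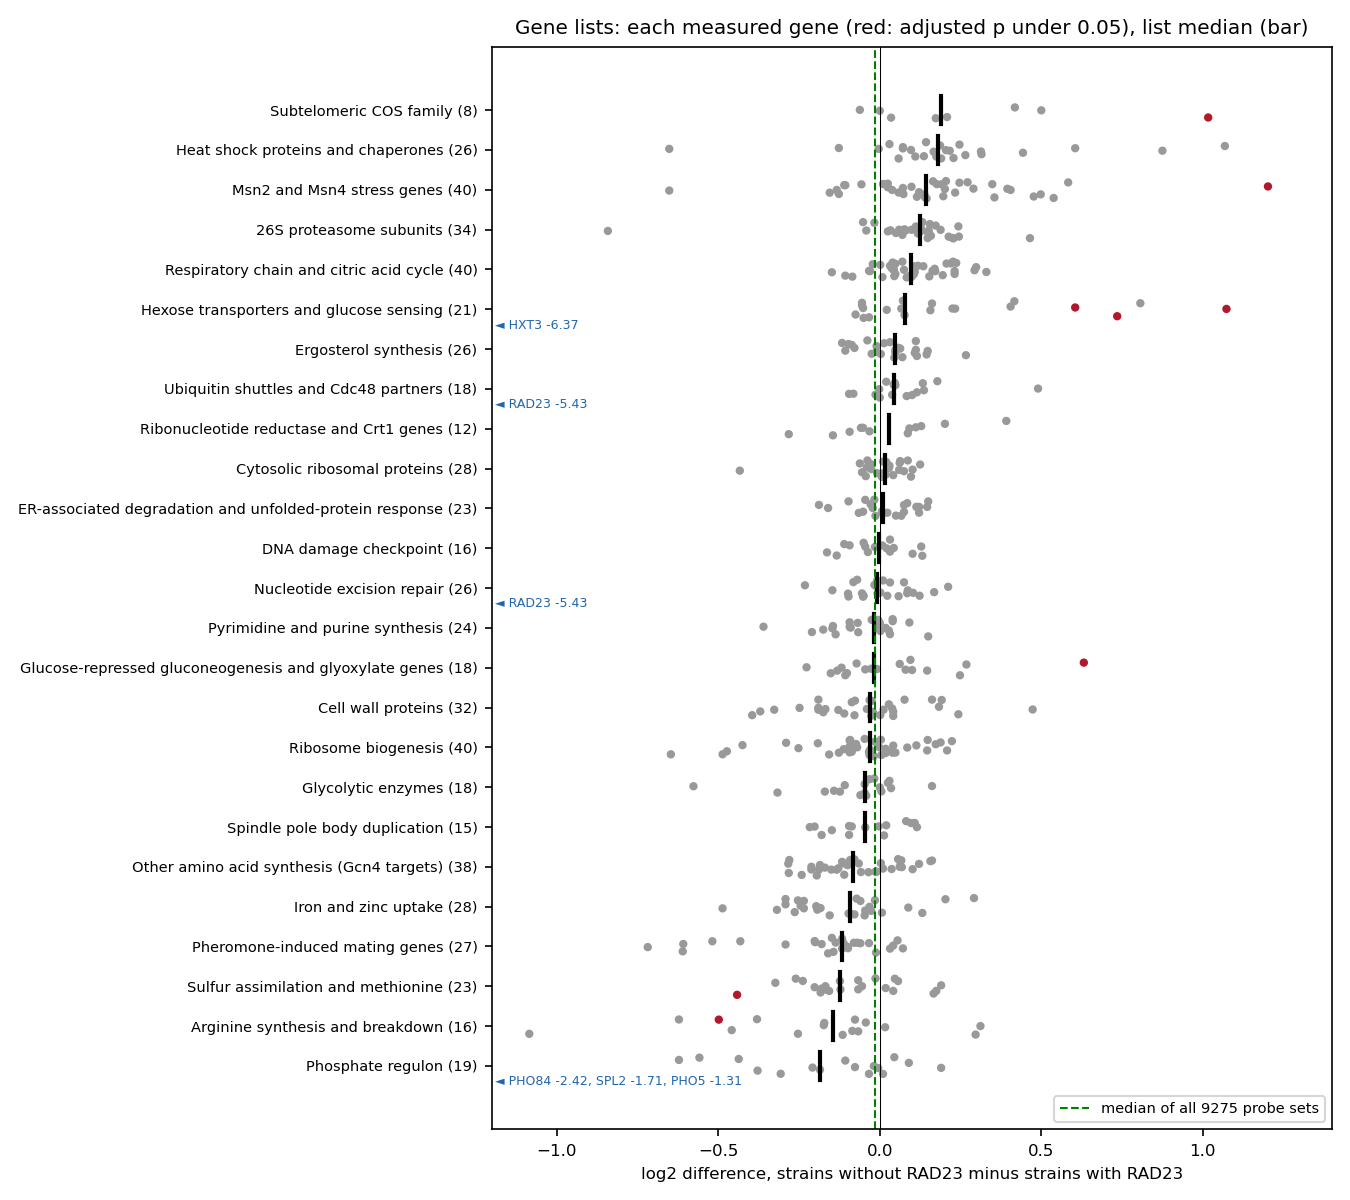
Each point is 1 measured gene of the list on the vertical axis (number measured in parentheses), and the horizontal axis is the log2 difference, strains without *RAD23* minus strains with *RAD23*. Black bars are list medians, the dashed line is the median of all 9275 probe sets (-0.01), red points passed an adjusted p of 0.05, and genes beyond the left edge are named with their value. Of the lists drawn, which leave out those of mating-type, haploid, growth-phase and strain markers, medians run between -0.18 for the phosphate regulon and 0.19 for the *COS* family.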

How the data were processed

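Total RNA of 4 strains was measured on 12 Affymetrix yeast S98 arrays, 3 per strain. Scans were made by the authors in Microarray Suite 5.0, who computed RMA values with affy 1.5.8 (Bioconductor 1.5, R 2.0.1), and the deposited values are log2 RMA values. No normalization was added. Of 9335 probe sets, 60 Affymetrix controls were left out, and of the 9275 tested 6504 had 1 gene name, 328 several and 2443 none (5656 genes).

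A model with 1 mean per *RAD23* state was fitted to the 12 arrays in limma 3.58.1 in R 4.3.3 (residual degrees of freedom 10, prior 4.04). Differences between strains of the same *RAD23* state stay in its residual. A second model had 4 strain means (residual degrees of freedom 8). Adjusted p are Benjamini-Hochberg values over all probe sets tested, with a threshold of 0.05 and no fold minimum. The number of arrays limits the precision. The procedure was tested on simulated data.

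Genes were named by rule: up to 15 probe sets in each direction with the largest called differences, no overlap of the 6 and 6 arrays and 1 gene name (6 higher, 12 lower), together with *RAD23*, *RAD4* and called members of 30 gene lists. Other genes, among them every named gene but *RAD4* that was not called, were chosen after their values were seen. The members and the lists were chosen with earlier results of these data known. Of 675 list entries 645 matched a probe set with 1 name. Lists are described by counts and medians, and no test was run over a list. Alternatives covered the model, replicate number as a block, scaling, dim probe sets, variance model, array weights, thresholds and leaving out arrays. Deviations of same-numbered arrays correlated at over 0.1 in all 3 pairs of *rad4Δrad23Δ* with *rad4Δ*, a pairing that comes from the values and not from the labels. Array weights estimated gene by gene were added after the data were seen. Sequences were not used here.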

Additional observations from a re-analysis of the deposited data

Results flagged for a closer look

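The effect of losing *RAD23* differed between *RAD4* backgrounds for 8 probe sets by limma's interaction test. *HXT3* was the only one of these also called in the pooled comparison. Its effect in *rad4Δ* cells minus that in *RAD4* cells was -2.19 on the log2 scale (adjusted p = 0.000352). *HXT3* was lower in all 3 *rad4Δrad23Δ* arrays (3.84 to 4.21) than in all 3 *rad23Δ* arrays (6.13 to 6.40). The former values are at the level of the deleted *RAD23* gene (3.66 to 4.88). The other 7 were *PHO84*, *URA6*, *GRE1*, *PIR3*, *NQM1* and 2 probe sets without a gene name. All 8 were computed with the *rad4Δ* and wildtype labels in doubt. *GRE1*, *PIR3* and *NQM1* varied little with *RAD23* present (3.13 to 3.53, 4.69 to 5.14 and 4.19 to 4.44). Their means were 4.44, 6.05 and 5.52 in *rad4Δrad23Δ*, against 3.44, 4.69 and 4.06 in *rad23Δ*. *PHO84* and the 2 unnamed probe sets spread more widely with *RAD23* present. *URA6* had a mean of 10.20 in *rad4Δ* and 9.48 in wildtype. Its values were 10.19, 10.39 and 10.03 on the *rad4Δ* arrays and 9.52, 9.39 and 9.53 on the wildtype arrays. Unlike *RAD4*, this gene kept to the labels, which its call by these labels favours. Whether the labels were exchanged was not tested. Dixon's test found no array apart from the other 5 of its group in any of 38 groups of 6 tested. These were the groups of the 18 genes named by rule and of *RAD4* only. The 18 were chosen for groups without overlap, and each group of 6 mixes 2 strains. The test could therefore hardly flag a stray array, and nothing on array quality is drawn from it.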

How the results depend on the processing

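None of the 22 called differences reversed in any alternative run. *HXT3*, *RAD23*, *HXT6*, *HXT7*, *ALD5* and the called *YRF1* probe set passed in all 24 that kept the threshold of 0.05 and asked for no fold. At 0.01 *ALD5* was lost, and with a log2 difference of at least 1 *ALD5* and *HXT7* were not counted.

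Against 22 called probe sets in the pooled comparison (7 higher, 15 lower), 4 strain means gave 80 (45 and 35), *RAD4* state as a covariate 40 (20 and 20), strain as a random block 29 (12 and 17), median-centred arrays 36 (19 and 17), further quantile normalization 39 (21 and 18), a mean log2 value of at least 5 gave 31 (14 and 17), a variance trend 30 (13 and 17), array weights 321 (137 and 184), array weights gene by gene, added after the data were seen, 253 (106 and 147), an adjusted p under 0.01 gave 5 (3 and 2), a log2 difference of at least 1 gave 6 (4 and 2), and leaving out both arrays in doubt 6 (3 and 3). The estimate of the first weights stopped before it converged. Leaving out 1 array gave 14 to 49 (5 to 14 higher, 9 to 35 lower). The main model keeps differences between strains of the same *RAD23* state in its residual. The model of 4 strain means takes them out, and *RAD4* state as a covariate takes out the part that goes with *RAD4*. How far this moved the count was not tested. The stricter thresholds and the smaller number of arrays apart, the cause of the other shifts was not tested either.

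*rad23Δ* against wildtype gave 26, and 2357 with array weights, 842 gene by gene, 8 at 0.01, 15 with the fold minimum, 61 without both arrays in doubt, and 7 to 25 without 1 array (7 without wildtype replicate 1). *rad4Δrad23Δ* against *rad4Δ* gave 71, and 882, 344, 26, 23, 116 and 25 to 88 in the same order (25 without *rad4Δrad23Δ* replicate 3). The interaction gave 8, and 13 median-centred, 14 after quantile normalization, 1016 and 332 with the weights, 3 at 0.01, 110 without both arrays in doubt, and 3 to 24 without 1 array. Its lowest count arose without wildtype replicate 2, among others, and its highest without *rad4Δ* replicate 2.

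Over all strains replicate numbers did not pair the arrays: deviations of same-numbered arrays correlated at -0.37 to 0.61, over 0.1 in 10 of 18 pairs. Between *rad4Δrad23Δ* and *rad4Δ* all 3 pairs were over 0.1 (0.27, 0.12 and 0.18). With replicate number as a block the pooled count was 20 (9 higher, 11 lower), and 25, 86 and 16 for *rad23Δ* against wildtype, *rad4Δrad23Δ* against *rad4Δ* and the interaction. *STR3*, *IZH1*, *NNF1*, *COS12*, *RGS2* and the probe set shared with *RBH2* then missed the threshold (adjusted p 0.0507 to 0.0717).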

Other observations

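Other probe sets separated the 6 arrays without *RAD23* from the 6 with *RAD23* without passing the adjusted threshold, 69 of the 90 that separated them (0.97% of 9275). They were picked after their values were seen and are given as values only. Transcripts of mitochondrial DNA were among those on the higher side: probe sets for *COB*, for *COB* with its introns *BI3* and *BI4*, and for *COX1* with its introns had differences of 0.53, 0.45 and 0.43 (adjusted p = 0.0897, 0.0612 and 0.0642). Both *COB* probe sets were near the lower end of the scale, at 2.68 to 3.89 and 3.17 to 3.99 over all arrays. The metallothionein genes *CUP1-1* and *CUP1-2*, read by 1 shared probe set, had 0.37 (adjusted p = 0.059), and the mitochondrial aldehyde dehydrogenase gene *ALD4* had 0.47 (adjusted p = 0.0571), opposite in sign to *ALD5*.

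On the lower side, the peptide transporter gene *PTR2* had -0.57 (adjusted p = 0.0752) and *UGA3*, an activator of genes for use of GABA as a nitrogen source, had -0.51 (adjusted p = 0.0612). *UBC13*, a ubiquitin-conjugating enzyme of DNA damage tolerance, had -0.30 (adjusted p = 0.168).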
